A study of Homo sapiens with 36 samples.

Results

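The NT5E locus was taken as a 250-kb window of chromosome 6 on hg19, whose first and last elements are chr6:86054151-86055733 and chr6:86290017-86291132, and every H3K27ac region and JUNB site that overlapped it was counted as a member. This gave 87 of 288084 H3K27ac regions over 6 tables and 25 of 146555 JUNB sites, or 112 of 434639 features in all. Each of the 6 H3K27ac comparisons has its own list of regions, 1001 bases wide, so the 87 regions overlap one another and were joined into 24 elements. Of these elements 2 were listed in all 6 tables, 7 in 5 tables and 4 in 1 table. The window was chosen by its low H3K27ac values in POS cells under acute trametinib relative to DMSO, so the values of that comparison are given as a description with no test. The name of the locus rests on the given window, because no hg19 gene annotation was used here and regions were not assigned to promoter, exon or intron. In RefSeq's gene order on GRCh38.p14, NT5E lies between the protein-coding genes TBX18 and SNX14.

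SUM-229PE is a triple-negative breast cancer line grown from a pleural effusion. It was sorted by surface EpCAM and CD49f into cells carrying both (POS) and cells lacking both (NEG), and all groups came from this line. H3K27ac was profiled in POS cells given 30 nM trametinib for 24 hours (3 libraries), NEG cells given the same (2), and their DMSO controls (3 POS and 2 NEG). It was also profiled on day 14 of 10 nM trametinib and on day 0, with 2 libraries per day in each subpopulation. The deposited names give day 0 as a DMSO control. H3K27ac was further profiled in 2 groups named POSR1 and POSR2 with 2 libraries each. What the POSR groups are, and if they were kept under drug, is not in the labels. JUNB was profiled in DMSO-treated POS (2) and NEG (2) cells. Day 14 has no untreated group of the same day, so drug and time in culture cannot be told apart there, and dose and time both differ from the 24-hour arm. The labels do not tie replicates to separate cultures, and p-values therefore measure a spread between samples that may be technical.

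NT5E encodes CD73, an ecto-5'-nucleotidase anchored on the outer face of the cell membrane. CD73 removes the phosphate from extracellular AMP and so releases adenosine, which signals through adenosine receptors on tumour and immune cells. CD73 is widely used as a surface marker of mesenchymal stromal cells. H3K27ac, acetylation of a lysine of histone H3, marks active promoters and enhancers. JUNB is a subunit of AP-1, a transcription factor family acting downstream of growth-factor and MAP kinase signalling, and trametinib inhibits the kinase MEK in that pathway. Whether the deposited regions lie at NT5E's own promoter was not tested.

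The promoter of NT5E is shown because it is the one regulatory sequence at this locus that the references used here hold. RefSeq places it on GRCh38.p14 at chr6:85449833-85450132, plus strand, with 250 bases before the annotated start and 50 after it. It was not placed on the hg19 regions. Capitals mark the letters TGACGT, the core of a cyclic AMP response element, which AP-1 and ATF proteins can also bind.

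NT5E promoter: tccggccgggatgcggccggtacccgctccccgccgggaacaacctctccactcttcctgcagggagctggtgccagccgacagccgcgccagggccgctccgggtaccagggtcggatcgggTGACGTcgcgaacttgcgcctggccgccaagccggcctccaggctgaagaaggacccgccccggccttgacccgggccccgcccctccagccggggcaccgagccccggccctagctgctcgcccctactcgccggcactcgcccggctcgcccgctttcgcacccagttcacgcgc

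This promoter sequence is 75.0% G or C. On both strands it held 1 match to TGACGT, at position -127 relative to the annotated start, which 7.98% of 35116 RefSeq promoters of this length also hold. The AP-1 motif TGANTCA was not in this promoter sequence, and 7.71% of all promoters hold it. The full element TGACGTCA, which contains TGACGT, was not in it either, against 1.85% of promoters. The GC box GGGCGG matched 2 times, and 45.0% of promoters hold at least 1 copy.

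Counts summed over the regions of a table ranged from 1861227 to 9212006 per H3K27ac library and from 4884516 to 8947351 per JUNB library. These sums are the library sizes used below and are not sequencing depth. The median region had 43 to 91 counts for H3K27ac and the median site 17 to 27 for JUNB. Levels below are CPM, counts relative to the library size after scaling with TMM factors, and each table was scaled on its own, so levels are compared only within a table. In these bulk samples, fewer cells carrying the mark and less mark per cell cannot be told apart. Of the 10 inputs none has a count column, so copy number at the locus was not measured.

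Before any drug, the libraries of POS and NEG cells overlapped at the 2 strongest H3K27ac regions of the window, while some other regions were higher or lower in POS. The region with the highest level, chr6:86113900-86114901, had 123, 88.3 and 119 CPM in POS DMSO libraries, against 128 and 115 CPM in NEG DMSO libraries. The ranges overlapped, and the log2 fold change was -0.14 ± 0.21 (SE; adjusted p = 0.56). The region with the lowest acute POS value, chr6:86173883-86174884, is called the lead region here. It had 91.4, 64.1 and 79.2 CPM in POS and 77.9 and 85.0 CPM in NEG, again overlapping, with a log2 fold change of -0.05 ± 0.20 (adjusted p = 0.82).

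Other elements separated the subpopulations. At the left end of the window, chr6:86054151-86055152 had 14.7, 11.7 and 14.3 CPM in POS and 1.78 and 2.84 CPM in NEG. Every POS library was above both NEG libraries, and the log2 fold change was 2.56 ± 0.28 (adjusted p = 2.4e-10). To the right of the lead region, chr6:86200134-86201135 had 25.6, 17.9 and 21.9 CPM in POS and 7.65 and 7.09 CPM in NEG, a log2 fold change of 1.58 ± 0.20 (adjusted p = 4.7e-09). Between these 2 places other regions were lower in POS. The region chr6:86137897-86138898 had 1.01, 1.88 and 1.91 CPM in POS against 9.07 and 7.80 CPM in NEG, with a log2 fold change of -2.43 ± 0.41 (adjusted p = 2.2e-06). At chr6:86125832-86126833 the levels were 1.90, 3.97 and 2.70 CPM in POS and 14.9 and 10.8 CPM in NEG, with a log2 fold change of -2.23 ± 0.30 (adjusted p = 2.7e-08). Both regions were thus low in all 3 POS libraries and showed no overlap with NEG. Neither was overlapped by a region of a comparison without NEG libraries, and the left end by none of a comparison without POS libraries. The regions of this comparison join those of both subpopulations, so their listing and the test are not independent.

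Of the 18 regions of the window in this table, all were tested, 4 were higher in POS and 8 were lower. Across all 57023 regions tested, 38.6% were higher in POS and 38.0% lower, so calls in the 2 directions together were no more frequent in the window than elsewhere. The median log2 fold change was -0.44 over the 18 regions and -0.04 over all regions. Calls here and below are from the quasi-likelihood test of edgeR, with p-values adjusted by Benjamini-Hochberg over all regions and a threshold of 0.05. Among the 8 lower calls, chr6:86070212-86071213 had 47.2, 36.5 and 43.3 CPM in POS and 63.0 and 62.6 CPM in NEG, with a log2 fold change of -0.56 ± 0.18 (adjusted p = 0.0063). This call was lost without NEG DMSO replicate 1 (adjusted p = 0.069), without NEG DMSO replicate 2 (0.065) and without POS DMSO replicate 3 (0.071). The POS DMSO libraries used here are also the controls of the acute POS comparison.

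**Figure D1:**
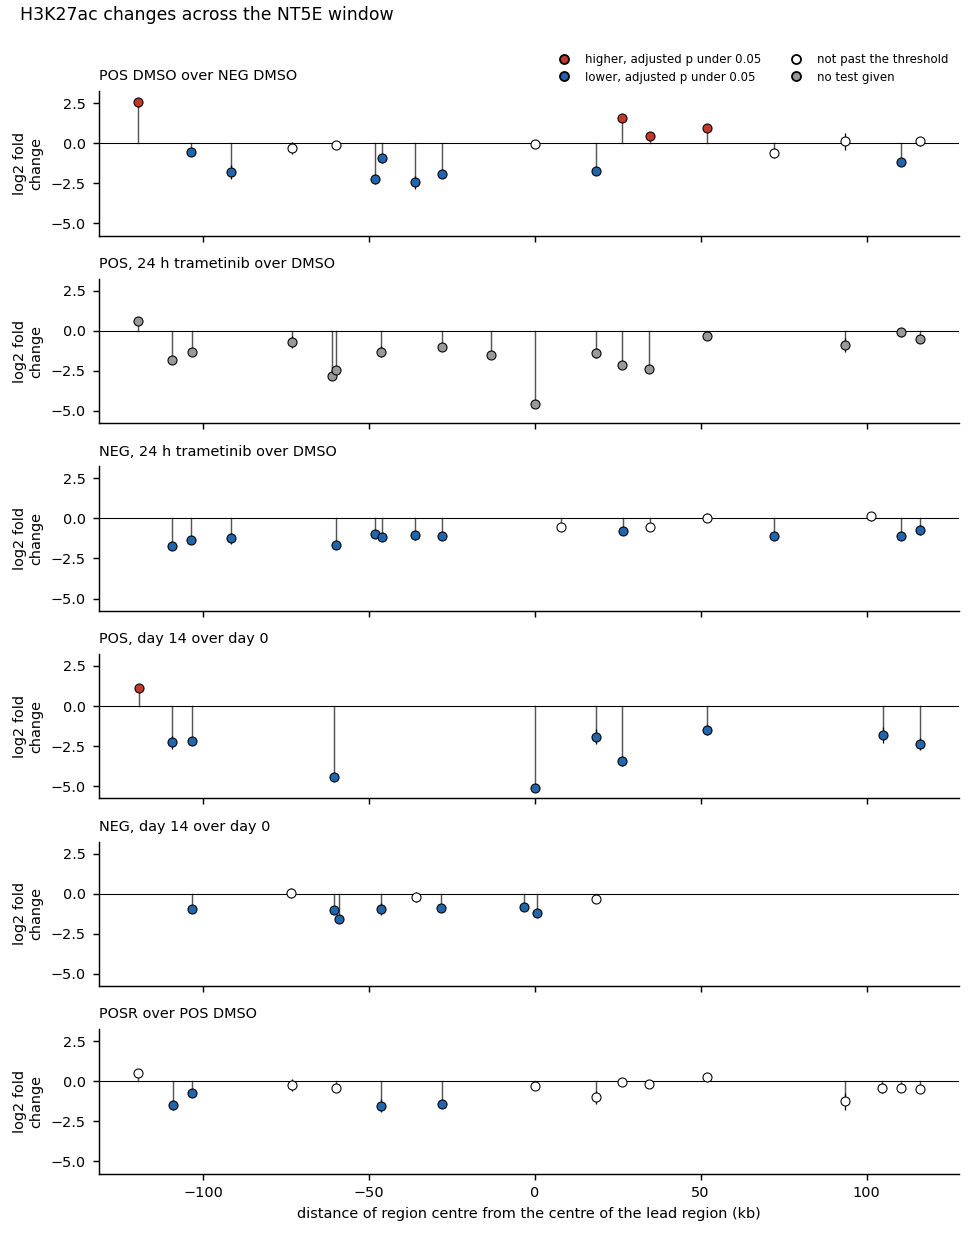
Log2 fold change of H3K27ac (vertical axis; thin bars are SE) for each region of the window against the distance of its centre from the centre of the lead region (kb), with 1 panel per comparison. Filled points passed an adjusted p of 0.05, open points did not, and grey points have no test; the lead region at 0 sits at -4.58 in acute POS and at -5.14 on day 14 in POS, and at -0.05 between POS and NEG.

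Day 0 libraries, which no 24-hour comparison uses, gave the same directions at the regions that could be matched between the POS and NEG day 14 tables. Of 3 matched regions, 0 were higher and 2 lower in POS, where 36.3% and 36.5% of 15794 matched regions were higher and lower. The third match, chr6:86113377-86114378, had 227 and 193 CPM in POS and 248 and 216 CPM in NEG on day 0, with a log2 fold change of -0.14 ± 0.10 (adjusted p = 0.21). This difference passed the test without POS day 0 replicate 1 (log2 fold change -0.26, adjusted p = 0.030). At chr6:86070571-86071572 POS had 74.4 and 70.5 CPM and NEG had 133 and 116 CPM, with a log2 fold change of -0.78 ± 0.12 (adjusted p = 1.8e-10). At chr6:86192221-86193222 POS had 8.30 and 15.5 CPM and NEG had 24.2 and 26.95 CPM, with a log2 fold change of -1.20 ± 0.26 (adjusted p = 9.1e-06).

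JUNB, a readout that the choice of the locus did not use, occupied the window in both subpopulations. The sites were 201 bases wide, and 18 of the 25 had at least 50% of their length in an H3K27ac region of some table. The most occupied site in POS, chr6:86071160-86071361, had 53.3 and 40.0 CPM in POS and 42.8 and 39.0 CPM in NEG. The groups overlapped there, with a log2 fold change of 0.19 ± 0.22 (adjusted p = 0.47). The lead region held 2 sites whose centres lie 654 bases apart. At chr6:86173970-86174171 JUNB was 36.1 and 31.8 CPM in POS and 57.7 and 58.3 CPM in NEG, with a log2 fold change of -0.77 ± 0.23 (adjusted p = 0.0017). At chr6:86174624-86174825 it was 18.8 and 15.3 CPM in POS and 46.1 and 33.1 CPM in NEG, with a log2 fold change of -1.21 ± 0.23 (adjusted p = 1.1e-06). Both sites were therefore lower in POS, with no overlap between libraries, at a region whose H3K27ac did not pass the test.

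Of the 25 sites, 4 were higher in POS and 12 lower, while 28.5% and 29.4% of 141580 tested sites were higher and lower. Each site is listed under a library that was then tested, a POS library for all 4 higher sites and a NEG library for all 12 lower sites. The listing of the sites and the test are therefore not independent. The libraries of the 2 groups did not overlap at 20 of the 25 sites, as at 76.7% of all tested sites. The median log2 fold change was -0.72 over the 25 sites and -0.02 over all. DESeq2 called 7 sites lower in place of 12, and edgeR called 7 lower without NEG JUNB replicate 2. Summed over the 25 sites, JUNB came to 220 and 182 CPM in POS and 290.4 and 292 CPM in NEG.

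The sites furthest apart lay on both sides of 0. At the left end, chr6:86054831-86055032 had 8.96 and 9.34 CPM in POS and 0.590 and 1.39 CPM in NEG, a log2 fold change of 3.28 ± 0.41 (adjusted p = 7.6e-15). The site chr6:86116545-86116746 had 5.35 and 3.05 CPM in POS and 0.590 and 0.697 CPM in NEG, with a log2 fold change of 2.74 ± 0.51 (adjusted p = 4.2e-07). At chr6:86200361-86200562 POS had 3.84 and 6.10 CPM and NEG had 1.30 and 1.22 CPM, with a log2 fold change of 1.92 ± 0.44 (adjusted p = 3.6e-05). All 3 sites were thus low in both NEG libraries, where they rest on few reads.

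In the other direction, chr6:86138396-86138597 had 0.814 and 0.763 CPM in POS and 4.13 and 5.40 CPM in NEG, with a log2 fold change of -2.54 ± 0.48 (adjusted p = 6.7e-07). At chr6:86139230-86139431 POS had 0.349 and 0.572 CPM and NEG had 2.12 and 2.96 CPM, a log2 fold change of -2.47 ± 0.64 (adjusted p = 0.00034), which did not pass without POS JUNB replicate 1 (adjusted p = 0.052). At chr6:86169403-86169604 JUNB was stronger, with 9.07 and 6.10 CPM in POS and 36.2 and 48.9 CPM in NEG. Its log2 fold change was -2.44 ± 0.25 (adjusted p = 1.8e-20). It lies in no H3K27ac region of any of the 6 tables and is 1 of 7 such sites in the window.

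**Figure D2:**
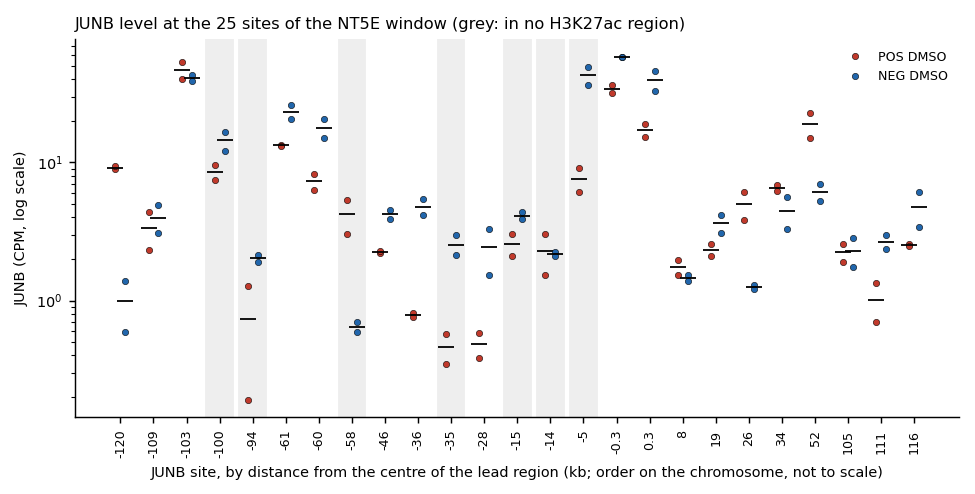
JUNB level (CPM, log scale) at the 25 sites in chromosome order for DMSO-treated POS (red) and NEG (blue) libraries, labelled by distance from the centre of the lead region in kb; points are libraries, bars are means of 2 libraries and grey bands mark sites in no H3K27ac region. The site at the left end is high in POS and near 1 CPM in NEG, and the pair of sites in the lead region is higher in both NEG libraries.

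JUNB and H3K27ac were then read at the same places. Of the 18 regions of the POS and NEG table, 12 held a JUNB site, and each was set beside its most occupied site. At 7 of the 12 both marks passed the test, all 7 in the same direction, and at 11 of 12 the log2 fold changes had the same sign. Over 43997 such regions of the whole table, both passed at 59.4%, both in the same direction at 57.3%, and the sign was the same at 83.8%, so these counts are not read as particular to the window. At the left end both were higher in POS (2.56 for H3K27ac, 3.28 for JUNB), and at chr6:86137897-86138898 both were lower (-2.43 and -2.54). The lead region had -0.05 for H3K27ac and -0.77 for JUNB. The POS libraries of each mark were set against NEG libraries of the same mark, and these are 12 places of 1 locus, so no test is given across them.

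**Figure D3:**
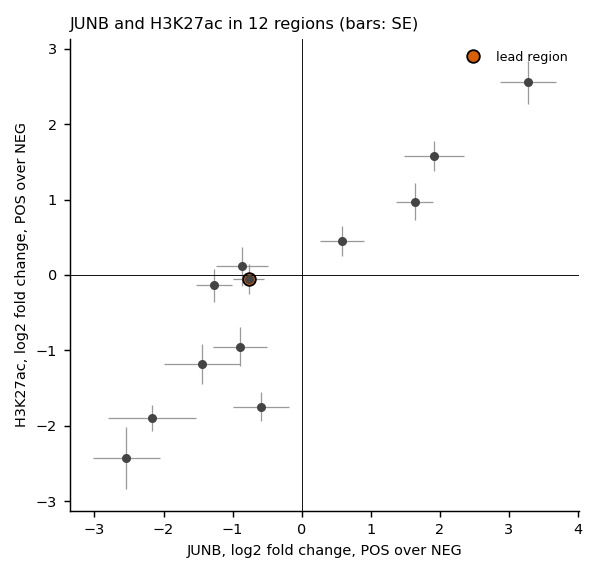
Log2 fold change of H3K27ac (vertical axis) against that of JUNB (horizontal axis), POS over NEG, for the 12 regions that hold a JUNB site; bars are SE and the lead region is in orange. At 11 of the 12 points both values have the same sign, and the lead region lies near 0 for H3K27ac and at -0.77 for JUNB.

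Under 30 nM trametinib for 24 hours, POS cells carried little H3K27ac at the lead region, which is the observation that brought the locus to notice. The lead region had 3.22, 3.76 and 2.78 CPM in trametinib-treated POS libraries, against 90.5, 62.4 and 77.6 CPM in POS DMSO libraries. Its log2 fold change of -4.58 ± 0.20 was the second lowest of 50345 regions. The element at -60.2 kb held 2 regions of this table. At chr6:86112598-86113599 the levels were 21.1, 13.8 and 16.9 CPM with trametinib and 136, 103 and 124 CPM with DMSO (log2 fold change -2.80 ± 0.18). At chr6:86113901-86114902 they were 22.9, 16.1 and 21.6 CPM with trametinib and 122, 85.9 and 116 CPM with DMSO (log2 fold change -2.41 ± 0.18). In these 3 regions every trametinib library was far below every DMSO library.

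The left end went the other way. There, chr6:86054165-86055166 had 19.3, 20.7 and 23.2 CPM with trametinib and 14.9, 11.6 and 14.5 CPM with DMSO, a log2 fold change of 0.61 ± 0.14 with no overlap. At chr6:86284396-86285397, near the right end, the groups overlapped, with 3.89, 5.98 and 3.68 CPM with trametinib and 4.39, 5.48 and 4.52 CPM with DMSO. Of 17 regions, 16 had a log2 fold change below 0, 10 were at least 2-fold lower and 0 at least 2-fold higher. Over 50345 regions, 10.9% were at least 2-fold lower and 8.78% at least 2-fold higher, and nothing is read from the comparison with these shares, since this contrast chose the window. Summed over the 17 regions, H3K27ac was 136, 132 and 129.9 CPM with trametinib and 546, 415 and 507 CPM with DMSO.

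**Figure D4:**
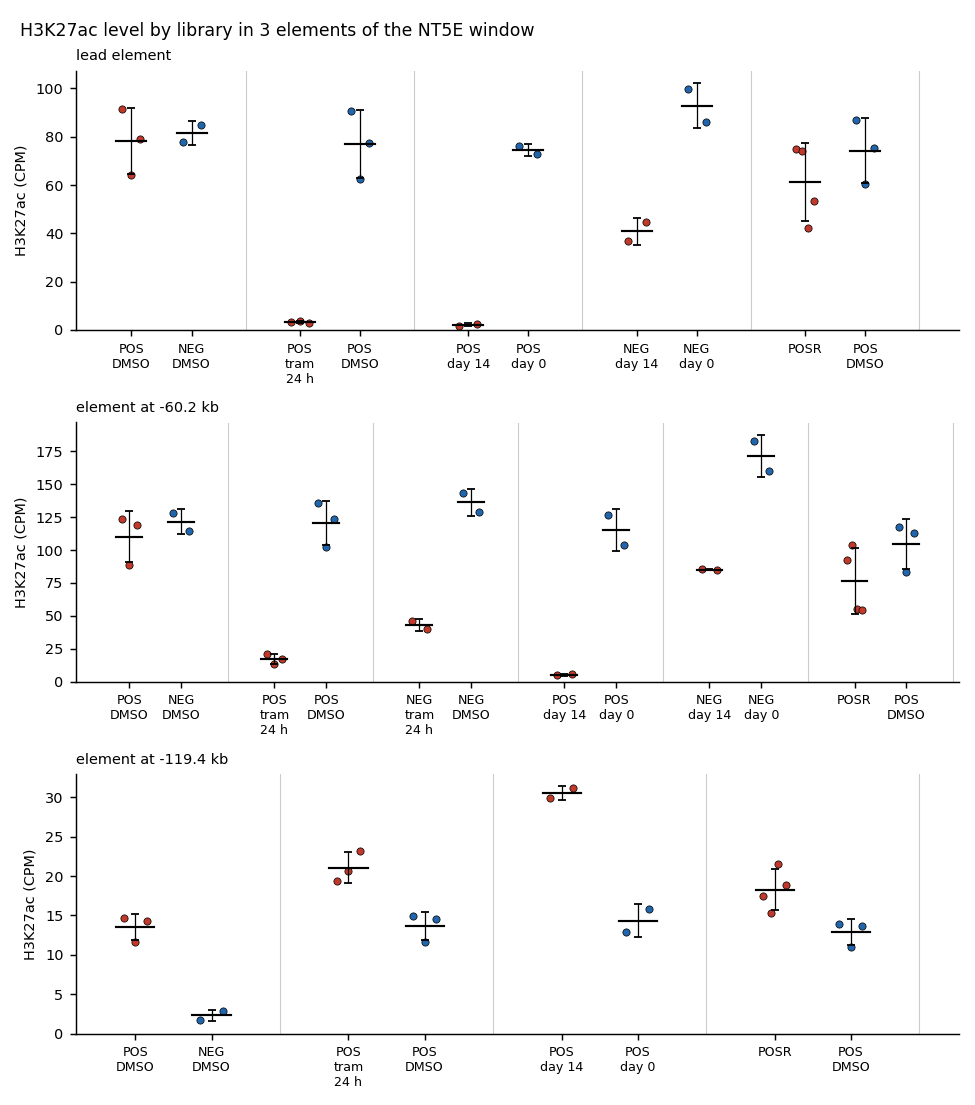
H3K27ac level (CPM) of each library in the lead element (top), the element at -60.2 kb from it (middle) and the element at -119.4 kb (bottom); each pair has its drug-treated, day 14, POSR or POS group in red and the group it is set against in blue, with bars for the mean and SD. Each pair shows the element's region with the highest mean level in that comparison and was scaled on its own, so levels are compared only within a pair. The lead element is near 0 in both trametinib-treated POS groups and the left-end element is higher in them than in their controls.

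NEG cells given the same dose for the same time also lost H3K27ac in the window, in libraries that the acute POS comparison does not hold. The highest region, chr6:86113900-86114901, had 46.1 and 39.7 CPM in trametinib-treated NEG libraries and 143 and 129 CPM in NEG DMSO libraries. Its log2 fold change was -1.66 ± 0.11 (adjusted p = 1.3e-51). At chr6:86070212-86071213 the levels were 28.5 and 26.4 CPM with trametinib and 70.3 and 70.3 CPM with DMSO (log2 fold change -1.36 ± 0.12, adjusted p = 2.0e-26). At chr6:86145749-86146750 they were 18.2 and 16.5 CPM with trametinib and 38.5 and 34.9 CPM with DMSO (log2 fold change -1.08 ± 0.15, adjusted p = 2.5e-12). In all 3 the trametinib libraries were well below the DMSO libraries.

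The lowest log2 fold change in NEG was at chr6:86064588-86065589, with 7.07 and 6.38 CPM with trametinib and 21.9 and 23.5 CPM with DMSO. It was -1.75 ± 0.19 (adjusted p = 7.7e-18). The highest values were 0.13 at chr6:86275328-86276329 (adjusted p = 0.78) and 0.06 at chr6:86225783-86226784 (adjusted p = 0.90), both with overlapping libraries. Of 16 regions, all tested, 12 fell and 0 rose, against 19.3% and 17.2% of 54409 regions, and the median log2 fold change was -1.06 over the 16 and 0.04 over all. DESeq2 called 7 of the 16 lower. The lead region is overlapped by no region of the NEG table of this arm, so its response to acute trametinib in NEG was not analysed here.

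After 14 days of 10 nM trametinib, POS cells had lost H3K27ac over the window again, in libraries separate from the 24-hour arm. The region over the lead, chr6:86173901-86174902, had 1.66 and 2.55 CPM on day 14 and 76.2 and 72.7 CPM on day 0. Its log2 fold change was -5.14 ± 0.21 (adjusted p = 1.3e-51), which ranked 10 from the lowest of 44304 regions. At chr6:86113377-86114378 the levels were 4.80 and 5.88 CPM on day 14 and 127 and 104 CPM on day 0, with a log2 fold change of -4.44 ± 0.18 (adjusted p = 2.2e-52) and rank 61. At chr6:86070571-86071572 they were 9.04 and 8.43 CPM on day 14 and 41.6 and 38.0 CPM on day 0 (log2 fold change -2.19 ± 0.17, adjusted p = 5.9e-25). The 2 strongest regions of the window on day 0 thus stood below chr6:86070571-86071572 on day 14.

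The left end rose on day 14. There, chr6:86054732-86055733 had 29.9 and 31.2 CPM on day 14 and 12.8 and 15.9 CPM on day 0, a log2 fold change of 1.12 ± 0.17 (adjusted p = 1.1e-09), and it was the highest region of the window in both day 14 libraries. The smallest fall was at chr6:86225769-86226770, with 3.14 and 5.29 CPM on day 14 and 11.2 and 12.6 CPM on day 0 (log2 fold change -1.49 ± 0.30, adjusted p = 3.6e-06). Of 10 regions, 1 rose and 9 fell, where 39.5% of all regions tested rose and 38.2% fell. The median log2 fold change was -2.23 over the 10 and 0.03 over all. Without any 1 of the 4 libraries the numbers were the same, 1 and 9. Summed over the 10 regions, H3K27ac was 58.3 and 60.0 CPM on day 14 and 316 and 294 CPM on day 0.

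NEG cells also lost H3K27ac in the window by day 14. The region over the lead element, chr6:86174463-86175464, had 36.9 and 44.7 CPM on day 14 and 99.6 and 86.2 CPM on day 0, a log2 fold change of -1.19 ± 0.13 (adjusted p = 5.2e-12). At chr6:86113377-86114378 the levels were 85.3 and 85.1 CPM on day 14 and 183 and 160.1 CPM on day 0 (log2 fold change -1.02 ± 0.11, adjusted p = 3.0e-13). The lowest log2 fold change, -1.58 ± 0.12 (adjusted p = 5.4e-19), was at the neighbouring chr6:86114843-86115844, with 50.0 and 46.6 CPM on day 14 and 153 and 135 CPM on day 0. In each of these regions both day 14 libraries were below both day 0 libraries.

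At chr6:86070571-86071572 NEG had 46.3 and 49.5 CPM on day 14 and 97.9 and 86.2 CPM on day 0 (log2 fold change -0.95 ± 0.13, adjusted p = 2.1e-09). The libraries overlapped at chr6:86100258-86101259 (log2 fold change 0.06, adjusted p = 0.89) and at chr6:86137917-86138918 (-0.22, adjusted p = 0.62). Of 10 regions, 0 rose and 7 fell, against 24.8% and 23.8% of 28179 regions, and the median log2 fold change was -0.93 over the 10 and 0.00 over all. No region of the NEG day 14 table lies at the left-end element, so its rise in POS has no NEG value beside it.

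The difference between the day 14 responses was tested over regions matched between the POS and NEG tables by a reciprocal overlap of 50%. At chr6:86113377-86114378 the log2 response of NEG minus that of POS was 2.91 ± 0.22 (adjusted p = 7.2e-38). At chr6:86070571-86071572 it was 0.73 ± 0.23 (adjusted p = 0.0028). At chr6:86192221-86193222 it was 1.04 ± 0.49 (adjusted p = 0.052), which passed without NEG day 14 replicate 1 (0.029) and without POS day 0 replicate 1 (0.0067). The loss was therefore larger in POS at the first 2, and 2 of 3 matched regions passed upward and 0 downward, where 31.9% and 30.7% of 15794 matched regions did. The lead regions of the POS and NEG tables share 439 bases, under the 50% needed. When any overlap was allowed, the lead pair had a difference of 3.45 ± 0.29 (adjusted p = 7.1e-30), and 4 regions passed upward. On day 0 this pair differed by 0.10 ± 0.11 between POS and NEG (adjusted p = 0.42). The POS and NEG counts of this pair come from different intervals, so neither value is a difference at the same place.

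POSR1 and POSR2, entered as 1 group of 4, carried the mark at the lead region. It had 74.7 and 74.2 CPM in POSR1 libraries, 42.1 and 53.5 CPM in POSR2 libraries and 87.0, 60.3 and 75.4 CPM in POS DMSO libraries. The ranges overlapped, and the log2 fold change of POSR over POS was -0.28 ± 0.22 (adjusted p = 0.34). At chr6:86113901-86114902 the levels were 92.1 and 104 CPM in POSR1, 55.3 and 54.5 CPM in POSR2 and 118, 83.1 and 113 CPM in POS (log2 fold change -0.45 ± 0.25, adjusted p = 0.18). A p above the threshold does not show that POSR and POS were alike at these regions. The p-values of POSR over POS count the libraries of POSR1 and POSR2 as replicates of 1 group. POSR2 was lower than POSR1 at both of these regions, as given below, so these p-values do not measure a spread between like replicates.

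Some regions left of the lead fell in POSR and others did not pass. At chr6:86070593-86071594 POSR had 31.3, 33.2, 21.8 and 24.0 CPM and POS had 50.7, 40.4 and 47.5 CPM, with a log2 fold change of -0.75 ± 0.18 (adjusted p = 0.0094). At chr6:86064723-86065724 POSR had 5.48, 2.74, 2.75 and 2.76 CPM and POS had 9.40, 9.62 and 9.84 CPM (log2 fold change -1.49 ± 0.28, adjusted p = 0.0031). At chr6:86127570-86128571 POSR had 3.37, 1.31, 1.44 and 0.919 CPM and POS had 5.06, 4.91 and 5.15 CPM (log2 fold change -1.53 ± 0.41, adjusted p = 0.016). All 4 POSR libraries lay below all 3 POS libraries at each of these regions. The last call was lost without POS DMSO replicate 1 (adjusted p = 0.053) or replicate 3 (0.063).

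The left end, chr6:86054151-86055152, had 17.4, 15.3, 21.5 and 18.9 CPM in POSR and 14.0, 11.0 and 13.6 CPM in POS. The log2 fold change was 0.50 ± 0.18 (adjusted p = 0.051), which passed without POSR1 replicate 2 (adjusted p = 0.035). At chr6:86225800-86226801 the groups overlapped (log2 fold change 0.25, adjusted p = 0.38). Of 16 regions, 0 rose and 4 fell in POSR, against 17.5% and 18.5% of 53240 regions, so the 4 falls are near the share over all regions. The median log2 fold change was -0.45 over the 16 and 0.01 over all. This comparison also shares its POS DMSO libraries with the acute POS comparison.

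The POSR groups differed from each other at the strong elements. POSR2 was lower than POSR1 at the lead region, with 42.1 and 53.5 CPM against 74.7 and 74.3 CPM, a log2 fold change of -0.64 ± 0.19 (adjusted p = 0.0033). This call was lost without POSR1 replicate 2 (adjusted p = 0.053) and without POSR2 replicate 1 (0.21). At chr6:86113901-86114902 POSR2 had 55.3 and 54.5 CPM and POSR1 had 92.1 and 104 CPM (log2 fold change -0.84 ± 0.20, adjusted p = 0.00019). Of 16 regions, 1 was higher and 4 were lower in POSR2, against 21.2% and 19.3% of 53524 regions. The number lower was 2 without POSR1 replicate 1 and 2 without POSR2 replicate 1.

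Each POSR group was also set against POS on its own. At the lead region the log2 fold change was -0.00 ± 0.17 for POSR1 over POS (adjusted p = 1.0) and -0.64 ± 0.18 for POSR2 over POS (adjusted p = 0.00088). POSR1 had 1 region higher and 6 lower than POS, where 26.5% and 29.4% of 53524 regions were higher and lower. POSR2 had 1 higher and 9 lower, against 28.2% and 29.2%. The left end was the region higher in POSR2 (log2 fold change 0.64 ± 0.15, adjusted p = 6.0e-05), and in POSR1 it had 0.32 ± 0.15 (adjusted p = 0.064). The region higher in POSR1 was chr6:86225800-86226801 (log2 fold change 0.40 ± 0.16, adjusted p = 0.026), and in POSR2 it had 0.12 ± 0.17 (adjusted p = 0.56). These fits were added after the data had been seen and use the same POS libraries.

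Of the 24 elements, 16 held a JUNB site, and 68 of the 87 regions did. All 10 regions of the POS day 14 table held one, against 12 of 18 in the POS and NEG table and 7 of 10 in the NEG day 14 table. Sites were common elsewhere too, and 43997 regions holding one were compared in the whole POS and NEG table, which lists 57075 regions. For the other tables the share over all regions was not counted, so nothing particular to the window is read from these counts. The element at -60.2 kb was the widest, 3246 bases, with 2 JUNB sites of its own.

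The window has fixed edges, so the regions nearest to them are given here. In the acute POS table the outermost regions inside had log2 fold changes of 0.61 (chr6:86054165-86055166) and -0.51 (chr6:86290017-86291018), and the nearest outside had 0.40 (chr6:85895695-85896696) and -0.53 (chr6:86379002-86380003). In the POS day 14 table the nearest region to the right, chr6:86388396-86389397, averaged 11.1 CPM on day 14 and 58.7 CPM on day 0, a log2 fold change of -2.41. For JUNB the outermost sites inside had 3.28 and -0.86, and the nearest outside had -0.03 (chr6:86033118-86033319) and -1.17 (chr6:86303677-86303878).

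Elsewhere in the genome, 24847 regions were matched to the same 4 tables as the lead region, those of acute POS, POS and NEG, POS day 14 and POSR. The nearest to the lead by Euclidean distance over the 4 log2 fold changes was chr5:150473063-150474064, at a distance of 1.32, where the median distance was 6.88. It had -3.84 in acute POS, 0.86 in POS over NEG, -4.55 in POS on day 14 and -0.30 in POSR. The next were chr6:164008695-164009696 (1.45), chr1:244326840-244327841 (1.50), chr10:4173276-4174277 (1.51) and chrX:45569668-45570669 (1.60). Since 3 of these comparisons share the POS DMSO libraries, the likeness is a description only.

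In the authors' deposited tables of differential enrichment, all members had the same sign of log2 fold change as here. At an adjusted p of 0.05 the authors' deposited tables called 8 of 18 regions between POS and NEG (56.9% of all regions listed), 4 of 16 in acute NEG (11.4%) and 9 of 10 in POS on day 14 (54.0%). The authors' deposited tables called 4 of 10 regions in NEG on day 14 (16.0%), 4 of 16 in POSR (35.8%) and 11 of 25 JUNB sites (35.3%). In acute NEG, 4 of the authors' adjusted p-values were missing in the authors' deposited table.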

How the data were processed

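H3K27ac was measured in 22 libraries and JUNB in 4, while the 10 inputs, for which no counts are held, were left out. Samples were grouped by their titles. Columns coded GSK were read as acute trametinib, since both their table's name and the sample descriptions give that drug. The members and lists were chosen with earlier results of these data known.

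The authors deposited 7 tables of raw counts per region and library, on regions of enrichment in tables named for MACS2, and 7 tables of DESeq2 results. In these deposited tables the mean level is a normalized signal, the fold change is on the log2 scale, the test statistic is a score, and p-values are given raw and adjusted. The tools named in the submitters' processing notes are MACS2, DESeq2, featureCounts, STAR 2.5.2b and cutadapt 1.12, and the build is hg19. No settings are named. A spike-in is not given in the sources used here, so levels are relative to the regions of each table. Coordinates follow the files, which do not state if a start counts from 0 or 1. A gene table of GRCh38.p14 was used for neighbours and the promoter only, so genes of the adenosine pathway and the sort markers were not placed on regions and are not analysed here.

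Whole tables were fitted with edgeR 4.0.16 (limma 3.58.1, R 4.3.3), with TMM factors (H3K27ac 0.888 to 1.12, JUNB 0.961 to 1.07), edgeR's filter at a minimum count of 10 and, for log values, a prior count of 2. P-values of the quasi-likelihood test were adjusted by Benjamini-Hochberg over all regions tested. The SE is the absolute log2 fold change divided by the square root of that test's F statistic, in acute POS too. The fit of matched regions had totals of 1249197 to 3251050 counts per library. Its TMM factors ran from 0.846 (POS day 14 replicate 2) to 1.13 (NEG day 14 replicate 1). All members passed the filter. The code was tested on simulated data. Named regions were, per table, the lead region and those overlapping it, the 3 of highest mean level and the 2 highest and 2 lowest log2 fold changes (3 each for JUNB), plus the nearest region on each side of the edges; regions named between POSR2 and POSR1 or in matched tables follow those names or were all that matched. The fits of each POSR group on its own were added after seeing the data. Alternatives were DESeq2 1.42.0, RLE factors, total counts, no filter, the replicate number as a block, leaving out each library and, for matched tables, any overlap. Replicates of a group correlated with r of 0.932 to 0.985 (log scale, across regions), and each pair differed by more than sampling noise, with a chi-square of 1.10 to 4.79 per degree of freedom. Summaries used python 3.11.15, pandas 2.3.3, numpy 2.4.6 and matplotlib 3.10.9.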

Additional observations from a re-analysis of the deposited data

Results flagged for a closer look

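In POSR, the H3K27ac level at chr6:86064723-86065724 was 5.48 CPM in POSR1 replicate 1 and 2.74 to 2.76 CPM in the other 3 libraries. The gap of that library was 0.995 of the whole range. For like replicates, chance flags about 1 in 20 groups of this kind. These libraries come from both POSR1 and POSR2, so that rate need not hold here. In all, 16 regions were looked at. Without POSR1 replicate 1, the log2 fold change of POSR2 over POSR1 there was 0.0049 in place of -0.55, and neither passed the test.

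The day 14 response differed between NEG and POS at 2 matched regions, by the interaction test. At chr6:86113377-86114378 the NEG minus POS difference in log2 response was 2.91, with log2 fold changes of -1.02 in NEG and -4.44 in POS from their own tables. At chr6:86070571-86071572 the difference was 0.73, with -0.95 in NEG and -2.19 in POS. The values from separate tables were each scaled within their table.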

How the results depend on the processing

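Of 223 counts of members under an alternative, 210 were within 1.5 times the reported count, and of 611 values of single regions 576 kept their direction and side of the threshold, 14 no longer passed, 12 newly passed and 9 changed sign. With DESeq2, 7 regions fell in acute NEG (12 reported) and 7 JUNB sites were lower in POS (12 reported). RLE factors gave 1 region higher in POSR (0 reported). Each POSR group on its own also gave 1, at different regions, and POSR2 alone gave 9 lower (4 reported). Total counts gave 2 regions higher in POSR2 than in POSR1 (1 reported). Any overlap gave 4 regions with a higher day 14 response in NEG (2 reported). Leaving out 1 library at a time gave 0 to 1 regions higher in POSR, 2 to 5 lower in POSR2 than in POSR1 and 7 to 9 JUNB sites lower in POS. The cause was not tested.

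Log2 fold changes that changed sign were all from regions not past the threshold or with no test, with a reported size of at most 0.545. Leaving out 1 library at a time, the lead region ranged from -0.18 to 0.070 between POS and NEG, above 0 without NEG DMSO replicate 2 and without POS DMSO replicate 2. In acute POS, chr6:86284396-86285397 ranged from -0.33 to 0.012. In acute NEG, chr6:86225783-86226784 ranged from -0.27 to 0.48 and chr6:86275328-86276329 from -0.12 to 0.43. In NEG on day 14, chr6:86100258-86101259 ranged from -0.15 to 0.25 and chr6:86137917-86138918 from -0.41 to 0.056. Between POSR2 and POSR1, chr6:86064723-86065724 ranged from -0.99 to 0.0049.

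Deviations of libraries with the same replicate number correlated at -0.196 to 0.375, and the numbers were not taken to pair samples. With the replicate number as a block, 2 regions fell in POSR (4 reported), 3 were higher and 7 lower in POS than in NEG (4 and 8 reported), and 13 JUNB sites were lower in POS (12 reported). With the block, chr6:86070212-86071213 had an adjusted p of 0.13 between POS and NEG, and in POSR chr6:86070593-86071594 had 0.093 and chr6:86127570-86128571 had 0.082. Total counts moved the median of all regions by -0.162 between POS and NEG and by 0.316 in the day 14 difference, and chr6:86113900-86114901 then passed between POS and NEG (log2 fold change -0.30, adjusted p = 0.034). JUNB sites with few counts limit what 2 libraries per group can show.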
